A study of Homo sapiens with 4 samples.

Results

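Keratins are the intermediate filament proteins of epithelial cells. The 10 keratins described here were *KRT5*, *KRT6A*, *KRT6B*, *KRT7* and *KRT8*, of type II, and *KRT14*, *KRT15*, *KRT17*, *KRT18* and *KRT19*, of type I. They were found by symbol in a table of 16811 genes, which listed all 10. The cells were MCF12A, a non-tumorigenic human mammary epithelial line that the labels call a breast cancer cell line. The edited group carries a CRISPR/Cas9 deletion of p2, a distal promoter of the long non-coding RNA *C1orf132*, and the labels give its genotype as C1orf132 KO. The wild-type group is unedited MCF12A, and both groups share one growth medium with horse serum, EGF, hydrocortisone, cholera toxin and insulin. Edited cells were sorted singly and grown as colonies, so an effect of the deletion and a trait of the founding cell cannot be told apart, and the methods do not name the colony that was sequenced. RNA-seq was made from 2 libraries per group, which the labels call biological replicates without saying what was repeated, so p-values measure the spread between these libraries.

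The authors' values are a normalized expression signal per gene, which no longer counts reads. They are taken here as scaled both for transcript length and across libraries. The normalization is not given in the sources used here, so sums, shares and ratios between keratins rest on this reading. Library sums ran from 1444640 to 1655440. Pairs of values below give replicates 1 and 2 of a group, in that order. Ratios of low values between libraries clustered at fixed steps, which gave a depth of 1.12, 0.929 and 1.00 times that of edited replicate 1 in edited replicate 2, wild-type replicate 1 and wild-type replicate 2. Taken directly, wild-type replicate 2 stood at 0.717 times the depth of wild-type replicate 1, which differs from the values above, so such ratios hold only up to small whole factors. Neither the depth of a library nor the number of reads behind a value is known. The table did not list *C1orf132* under this symbol or as *MIR29B2CHG*, so labels alone assign each library to its group. Of 8 markers of mammary epithelium, 1 (*KRT8*) was higher and 3 (*CDH1*, *EPCAM* and *TP63*) were lower in edited cells (limma, Benjamini-Hochberg adjusted p under 0.05), beside 2.89% of all tested genes higher and 4.2% lower. Of these markers, *KRT5*, *KRT14*, *KRT8* and *KRT18* are themselves among the 10 keratins. *CDH1* and *EPCAM* reached the mean of 10 needed for this test only through wild-type values. *CDH1*, which encodes E-cadherin, was at 3.89 and 1.54 (edited) against 150 and 123 (wild type). *EPCAM*, an epithelial adhesion molecule, was at 9.93 and 5.29 (edited) against 57.6 and 27.8 (wild type). The edited libraries thus held little RNA of these epithelial adhesion genes beside high values of *KRT5* and *KRT7*. In bulk RNA, fewer cells of a type and less RNA per cell cannot be told apart.

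A keratin filament is built from equal amounts of a type I and a type II chain, so the chains of both types work as partners. In the mammary gland *KRT5* and *KRT14* mark the basal, myoepithelial layer, while *KRT8*, *KRT18*, *KRT19* and *KRT7* belong to the simple keratins of luminal cells. *KRT6A*, *KRT6B* and *KRT17* are known from activated epithelium at wound edges, and *KRT15* from basal cells of stratified epithelia.

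In RefSeq (GRCh38.p14, the build that the submitters' processing notes name as hg38) the type II genes lie together on chromosome 12, in the order *KRT7* (52233243 to 52255853), *KRT6B* (52446651 to 52452146), *KRT6A* (52487176 to 52493257), *KRT5* (52514575 to 52520394) and *KRT8* (52897191 to 52949860). *KRT18*, of type I, lies beside *KRT8* (52948855 to 52952906), and the spans of the pair overlap by 1006 bases. The other type I genes lie on chromosome 17, in the order *KRT15* (41513745 to 41518890), *KRT19* (41523617 to 41528308), *KRT14* (41582279 to 41586895) and *KRT17* (41619442 to 41624575). The sources used here do not say that counting used strand, so reads of the *KRT8* and *KRT18* overlap cannot be assigned to one of them. RefSeq also lists 52 pseudogenes of *KRT8*, 68 of *KRT18*, 8 of *KRT17* and 5 of *KRT19*, and *KRT6A*, *KRT6B* and *KRT6C* are near-identical copies, as *KRT14*, *KRT16* and *KRT17* are close relatives. How the authors' counting split reads within these families is not given in the sources used here, which leaves the division between such copies uncertain.

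Promoter sequences from RefSeq (GRCh38.p14) were at hand for 2 of the 10 keratins, *KRT5* and *KRT8*, type II genes whose differences had opposite signs. The 250 bases before each start site are shown on the minus strand, from which both are transcribed, at chr12:52520395-52520644 for *KRT5* and chr12:52926470-52926719 for *KRT8*. Capitals mark a match to the E-box CACCTG, which is read by ZEB and SNAI repressors, here in its reverse complement CAGGTG.
KRT5: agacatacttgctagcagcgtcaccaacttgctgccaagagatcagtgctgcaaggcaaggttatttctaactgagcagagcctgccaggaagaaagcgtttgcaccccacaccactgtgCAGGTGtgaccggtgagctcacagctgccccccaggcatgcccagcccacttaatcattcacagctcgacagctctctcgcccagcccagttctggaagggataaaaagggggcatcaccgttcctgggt
KRT8: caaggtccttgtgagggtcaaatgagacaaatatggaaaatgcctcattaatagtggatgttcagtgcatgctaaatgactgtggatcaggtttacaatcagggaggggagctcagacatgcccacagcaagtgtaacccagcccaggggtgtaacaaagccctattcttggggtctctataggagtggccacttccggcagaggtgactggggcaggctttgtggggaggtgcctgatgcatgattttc
The match of *KRT5* begins 130 bases before its start, the *KRT8* window holds 0 matches, and 17.5% of 34788 promoter windows of this length hold one. On both strands, 0 matches were found in these windows to the TATA box TATAAA, held by 10.8% of all windows, or to the AP-1 motif TGANTCA, held by 6.59%. The AP-2 motif GCCNNNGGC (19.8% of all windows) and the SP1 motif GGGCGG (42.6% of all windows) had 0 matches as well. The start of *KRT8* in this table lies 23391 bases inside the distal end of the gene, so its other starts are not covered. A match is a stretch of letters and says nothing of binding.

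In edited cells *KRT6B* and *KRT17* were lower and *KRT8* was higher than in wild-type cells at an adjusted p under 0.05 (limma on log2(value + 1), Benjamini-Hochberg over the 9590 genes whose mean value reached 10). Hence 2 of 10 keratins fell, where 4.2% of all tested genes did, and 1 rose, where 2.89% of all tested genes did. In either direction 3 of 10 passed, beside 7.09% of all tested genes, and the other 7 did not pass. At an adjusted p under 0.001, which is the study's threshold, limma called 0 of the 10 keratins and 0.0104% of all tested genes. The study reported far more genes at this threshold, with a test of these libraries that its methods do not name. In limma, 7 of the 10 had an unadjusted p under 0.05, as did 3095 of the 9590 tested genes. Both edited libraries lay below both wild-type libraries for 7 keratins, an arrangement that 26.9% of all tested genes showed, and above them for 1, which 38.3% of all tested genes showed. For the 2 others, *KRT7* and *KRT18*, the groups overlapped. The median log2 fold change of the 10 keratins was -1.64, beside 0.09 for all tested genes. Tested genes of chromosomes 12 and 17 had medians of 0.14 and 0.09, close to that of the whole table.

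**Figure D1:**
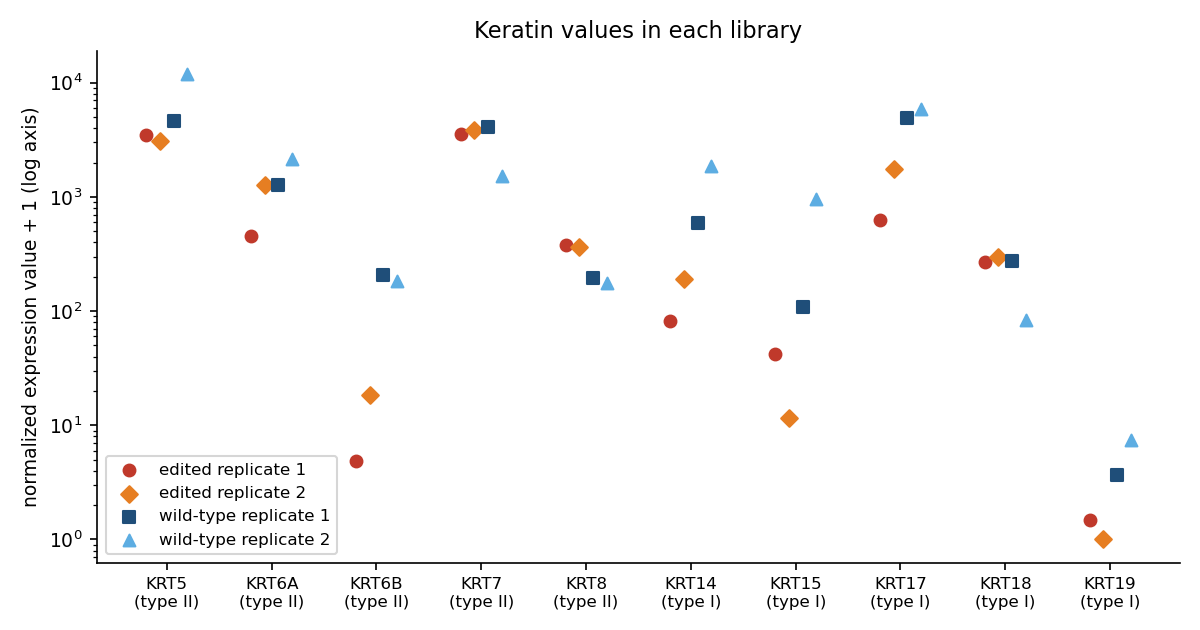
Normalized expression value plus 1 (log axis) of each keratin in the 4 libraries, 1 point per library. Edited points lie below both wild-type points for 7 keratins and above them for *KRT8*, while *KRT15* spreads from 107 to 950 between the wild-type libraries.

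Among the basal keratins, *KRT5*, the main type II chain of basal cells, was listed at 3514 and 3056 (edited) against 4590 and 11914 (wild type). The edited libraries were close to each other and below both wild-type libraries, which themselves differed 2.60-fold. The log2 fold change of *KRT5* was -1.17 (standard error, SE, 0.45, limma adjusted p = 0.146), which did not pass. Leaving out wild-type replicate 2 gave -0.49, and leaving out wild-type replicate 1 gave -1.86.

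*KRT14*, the type I partner of *KRT5*, was listed at 80.3 and 190 (edited) against 585 and 1880 (wild type). All edited values lay under those of the wild type, with a mean of 135 ± 77.2 against 1233 ± 916 (SD, n = 2 each), a ratio of 0.109. Its log2 fold change of -3.08 (SE 0.65, limma adjusted p = 0.0512) stood just outside the threshold. Over 11 alternative settings the adjusted p from limma ranged from 0.0316 to 0.0791, and 5 of them made the call. These 5 include a crossed pairing of unlike-numbered libraries (limma adjusted p = 0.0351), which was chosen after seeing the data. Without edited replicate 2 the log2 fold change was -3.69.

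*KRT15*, a type I keratin of basal cells, was at 41.0 and 10.7 (edited) against 107 and 950 (wild type). Both edited values lay below both wild-type values, but its replicates spread widely, by 8.92-fold in the wild type and 3.84-fold in edited cells. The log2 fold change was -3.85 (SE 1.10, limma adjusted p = 0.0843). With single libraries left out it lay between -5.43 and -2.28. It was -2.28 without wild-type replicate 2 and passed the test, at -4.78, without edited replicate 1 (adjusted p = 0.0431 from limma).

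Among the keratins of activated epithelium, *KRT17* was at 621 and 1738 (edited) against 4947 and 5828 (wild type). It was the most abundant of the 10 in wild-type replicate 1 and fell from a mean of 5387 ± 623 to 1180 ± 790 (SD, n = 2 each), a ratio of 0.219. The log2 fold change was -2.37 (SE 0.49, limma adjusted p = 0.0491). This call lay next to the threshold: 6 of 11 alternative settings did not make it. Over the 11 the adjusted p from limma ranged from 0.0204 to 0.0707, and the lowest came from the crossed pairing, chosen after seeing the data. With each library left out the log2 fold change lay between -3.11, without edited replicate 2, and -1.63.

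*KRT6B*, a type II keratin induced in wounded and proliferating epithelium, was listed at 3.87 and 17.3 (edited) against 208 and 183 (wild type). The wild-type libraries were nearly alike, and both edited libraries lay far under them, although they differed 4.48-fold between themselves. The ratio of means was 0.0543, and *KRT6B* had the lowest adjusted p of the 10 keratins (log2 fold change -4.37, SE 0.60, limma adjusted p = 0.0223). In 10 of 11 alternative settings, among them the crossed pairing chosen after seeing the data, the call was made. It was not made without replicate 1 (adjusted p = 0.0923) or 2 of the wild type (adjusted p = 0.145, both from limma), where the log2 fold change was -4.28 and -4.47.

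*KRT6A*, the close copy of *KRT6B*, was at 450 and 1269 (edited) against 1281 and 2135 (wild type). Edited replicate 2 nearly reached wild-type replicate 1, so the groups were separate by a narrow margin. Its log2 fold change was -1.13 (SE 0.53, limma adjusted p = 0.205). Without edited replicate 2 it was -1.88 and passed the test (adjusted p = 0.0226 from limma), and without edited replicate 1 it was -0.38. The difference between the changes of *KRT6A* and *KRT6B* was not tested, and the proportion of *KRT6B* to *KRT6A* rests on how reads of near-identical copies were divided.

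Among the simple keratins, *KRT8*, the type II chain of luminal cells, rose from 194 and 175 in wild-type replicates 1 and 2 to 378 and 365 in edited replicates 1 and 2. The replicates of each group were close to each other and the groups did not overlap. The means were 371 ± 9.15 in edited and 185 ± 13.5 in wild-type cells (SD, n = 2 each), 2.01 times as much in edited cells. The log2 fold change of *KRT8* was 1.01 (SE 0.20, limma adjusted p = 0.0449), and the fits that leave out a library gave 0.93 to 1.08. None of these 4 fits made the call (adjusted p from 0.0534 to 0.224 from limma), and 8 of 11 alternative settings did.

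*KRT18*, the type I partner of *KRT8*, was at 266 and 296 (edited) against 275 and 82.2 (wild type). Wild-type replicate 2 alone was low, and the other libraries had nearly the same value. The log2 fold change of 0.89 (SE 0.55, limma adjusted p = 0.305) did not pass. Leaving out wild-type replicate 2 gave 0.03, and leaving out wild-type replicate 1 gave 1.76. *KRT7*, a type II keratin of simple and ductal epithelia, showed the same arrangement, at 3584 and 3842 (edited) against 4100 and 1538 (wild type). Its log2 fold change was 0.56 (SE 0.46, limma adjusted p = 0.437), which turned to -0.14 without wild-type replicate 2 and reached 1.27 when replicate 1 of the wild type was left out.

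*KRT19*, a type I keratin of luminal cells, was barely listed in these cells, at 0.471 and 0 (edited) against 2.70 and 6.42 (wild type). It was the lowest of the 10 keratins in every library, and its mean value was under 10. Tested among all 16811 genes, of which 3.4% were called lower and 1.33% higher, it had a log2 fold change of -2.11 (SE 0.43, limma adjusted p = 0.0569), which did not pass. The size of this low gene's fold change depends on the pseudocount, with -4.16 at 0.1 and -0.84 at 5 in place of 1, and neither passed.

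**Figure D2:**
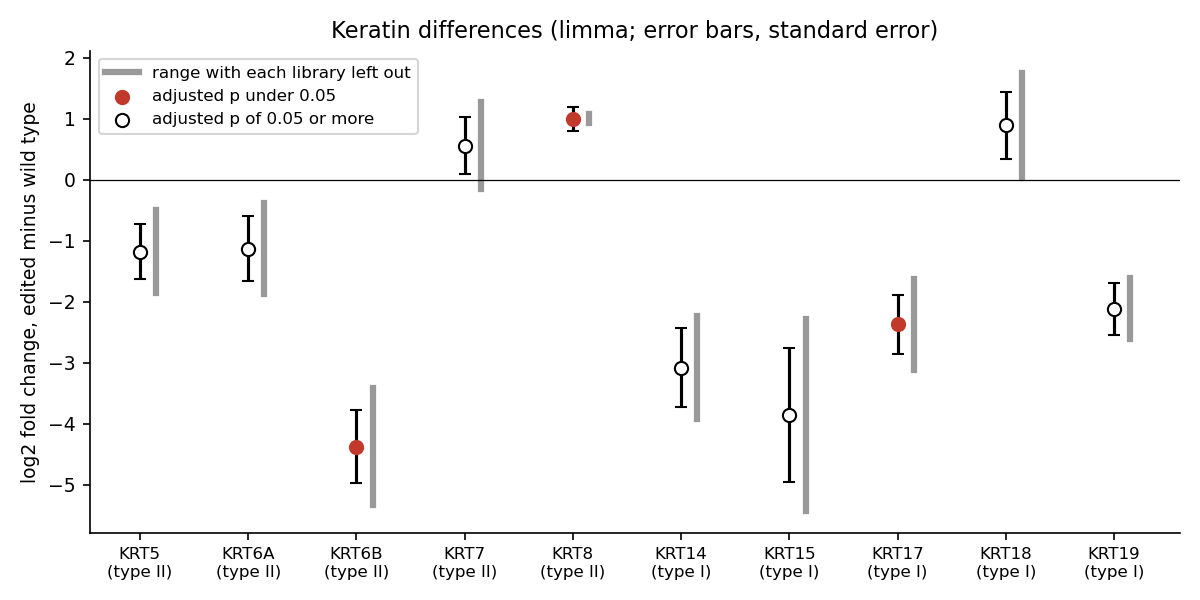
Log2 fold change of each keratin, edited minus wild type, with its standard error from limma; grey bars give the range of the fold change with each library left out in turn. *KRT6B* (-4.37), *KRT17* (-2.37) and *KRT8* (1.01) are filled as past an adjusted p of 0.05, and the grey bar of *KRT7* crosses 0.

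Since keratin chains work in pairs, the ratio of a type II to a type I value was taken within each library, where a scaling factor of the library cancels. Summed over the 5 type II keratins, the value was 7930 and 8549 (edited) against 10374 and 15945 (wild type). Over the 5 type I keratins it was 1009 and 2234 (edited) against 5915 and 8747 (wild type). Type II values thus exceeded type I values 7.86-fold and 3.83-fold in edited replicates 1 and 2, but 1.75-fold and 1.82-fold in wild-type replicates 1 and 2. On the log2 scale this ratio was higher in edited cells by 1.62, where the pooled SD between replicates was 0.52. The wild-type ratios were nearly the same although the level of single keratins differed between these libraries. With single libraries left out the difference lay between 1.10 and 2.14. With 2 libraries a group, the exact permutation test (two-sided) has 0.333 as its smallest p, which was its value here, so sums and ratios are given as values.

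For the basal pair, the value of *KRT5* was 43.8 and 16.1 times that of *KRT14* in edited replicates 1 and 2 and 7.85 and 6.34 times in the wild type. The log2 ratio of this pair, with 1 added to each value, was higher in edited cells by 1.90 (pooled SD between replicates 0.73, exact permutation p = 0.333). *KRT5* stood at 85.7 and 286 times *KRT15* in the edited and at 43.1 and 12.5 times in the wild-type libraries, a log2 difference of 2.68 (pooled SD 1.21). In both basal pairs the type I chain was the scarcer one in all libraries, and more so in edited cells.

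For the keratins of activated epithelium, *KRT6A* was at 0.724 and 0.730 times *KRT17* in edited replicates 1 and 2 and at 0.259 and 0.366 times in the wild type. The edited replicates had nearly the same ratio although *KRT6A* and *KRT17* were 2.82-fold and 2.80-fold higher in edited replicate 2 than in edited replicate 1. The log2 difference was 1.24, with a pooled SD of 0.25. With *KRT6B* in place of *KRT6A* the ratio went the other way, from 0.0420 and 0.0314 in the wild-type to 0.00622 and 0.00997 in the edited libraries, a log2 difference of -2.01 (pooled SD 0.30).

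For the simple pair, *KRT8* was at 1.42 and 1.23 times *KRT18* in the edited libraries and at 0.707 and 2.13 times in the wild type. The wild-type libraries lay on both sides of the edited ones, and the log2 difference of 0.11 was smaller than the pooled SD between replicates, 0.80. The ratios of *KRT7* and *KRT8* to *KRT19* were higher in edited cells by 2.67 and 3.12 on the log2 scale, but *KRT19* was near or at 0 there, and these sizes depend on the value added before the logarithm.

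**Figure D3:**
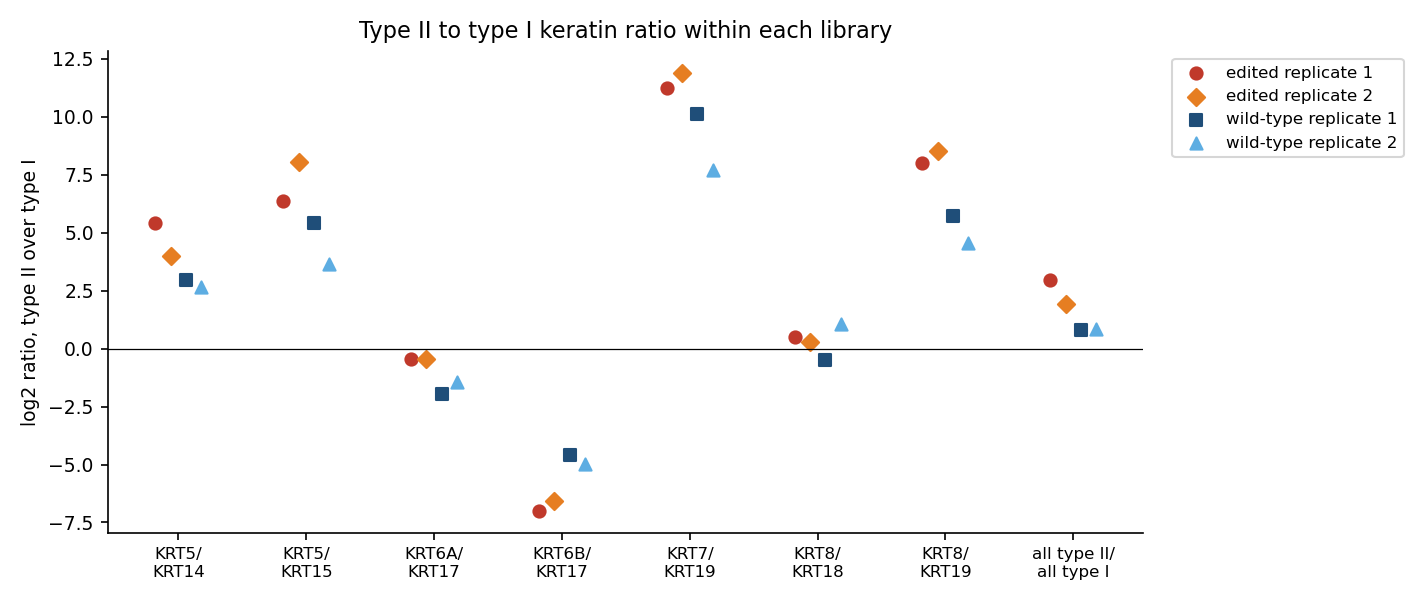
Log2 ratio of type II to type I keratin value within each library, 1 point per library, with 1 added to each value of a gene pair and nothing added to the sums. The summed ratio lies at 2.97 and 1.94 (edited) against 0.81 and 0.87 (wild type), whereas *KRT8*/*KRT18* overlaps between groups.

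The makeup of the summed keratin value also shifted. The 10 keratins summed to 8939 and 10784 (edited) against 16289 and 24692 (wild type), so the edited sum was lower by 1.06 on the log2 scale (pooled SD 0.33). *KRT7* held the largest share in edited cells, 40.1% and 35.6%, against 25.2% and 6.23% in the wild type. *KRT17* held 6.95% and 16.1% (edited) against 30.4% and 23.6% (wild type). *KRT14* held 0.899% and 1.76% (edited) against 3.59% and 7.62% (wild type). *KRT15* held 0.459% and 0.0989% (edited) against 0.654% and 3.85% (wild type), so each was a small part of the sum in both groups. *KRT5* kept a large share everywhere, from 28.2% to 48.2%, with no separation of the groups. The share of *KRT8* was 4.23% and 3.38% (edited) against 1.19% and 0.709% (wild type). Shares of one sum are tied to each other, so a lower share of one keratin raises those of the rest.

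**Figure D4:**
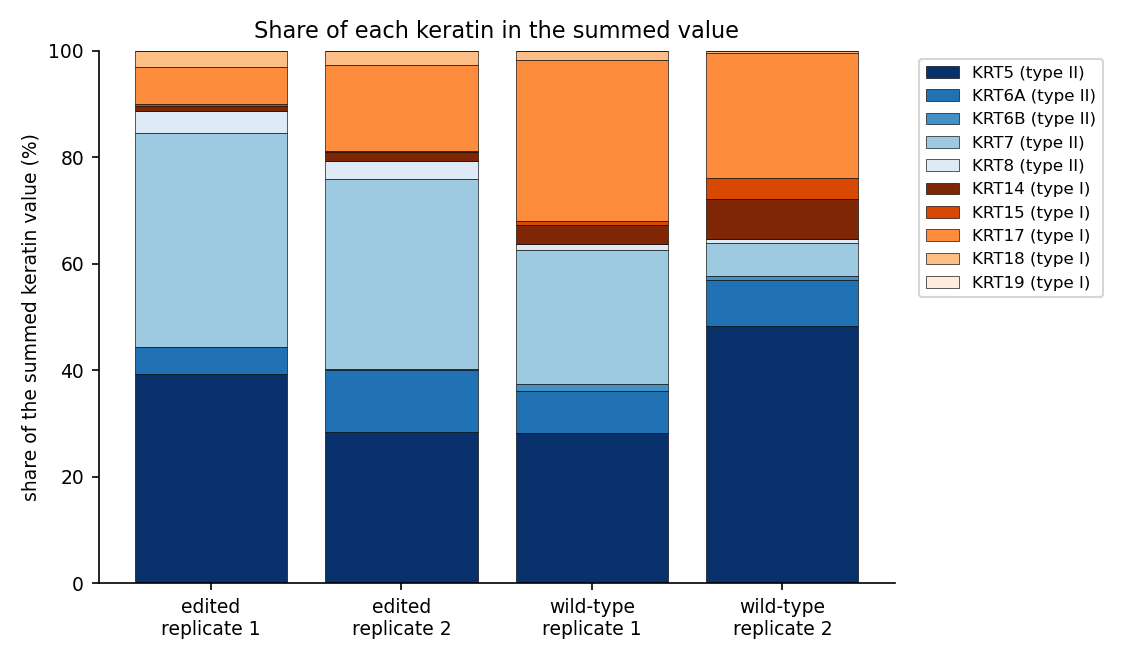
Share (%) of each keratin in the summed value of the 10 keratins, 1 stacked bar per library, with type II keratins in blue and type I keratins in orange and brown. The orange and brown part is smaller in both edited libraries, and *KRT7* is at 6.23% in wild-type replicate 2.

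The keratins varied strongly within groups. Between the wild-type replicates 6 of the 10 keratins differed at least 2-fold in value + 1, as did 3.11% of all tested genes. Between the edited replicates this was so for 5 of the 10, beside 4.72% of all tested genes. Wild-type replicate 2 had more *KRT5*, *KRT14* and *KRT15* and less *KRT7* and *KRT18* than wild-type replicate 1, by 2.60-fold, 3.22-fold, 8.92-fold, 2.67-fold and 3.34-fold. *KRT6B*, *KRT8* and *KRT17*, the keratins that passed the test, differed between the wild-type replicates by 1.14-fold, 1.11-fold and 1.18-fold. The test weighs a difference against the spread between replicates, so keratins with a small spread pass more readily. Edited replicate 2 had more *KRT6A*, *KRT6B*, *KRT14* and *KRT17* than edited replicate 1, by 2.82-fold, 4.48-fold, 2.36-fold and 2.80-fold, and less *KRT15*. Markers of other cell types also varied between libraries. Of 10 fibroblast markers, 3 were listed in the table (*COL1A1*, *DCN* and *FAP*), and their summed value was 30.5 and 225 (edited) against 78.0 and 52.3 (wild type). These 3 did not move together: *COL1A1*, a fibrillar collagen, fell from 15.6 and 28.1 (wild type) to 3.19 and 5.58 (edited; limma adjusted p = 0.0420), while *DCN*, which encodes decorin, was at 15.1 and 105 (edited) against 7.42 and 1.09 (wild type) and did not pass (limma adjusted p = 0.0974). *COL1A1* and *DCN* reached a mean of 10 only through the group where each was higher. The groups of *FAP* overlapped. Of 6 myoepithelial markers, 2 were listed (*ACTA2* and *MYLK*), with sums from 58.8 to 77.2, and of 5 leukocyte markers 1 (*CD14*), with values from 8.98 to 15.1. None of these listed markers was at 0 in all libraries, 0 of 5 endothelial markers were listed, and the part of other cells in the keratin differences was not tested.

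Patterns over the 4 libraries were compared with all genes whose mean value reached 50, as the root mean square distance between log2(value + 1) profiles, each less its own mean. *KRT17* was closest to *TP63*, a master transcription factor of basal epithelium (distance 0.20). *TP63* was at 12.6 and 31.2 (edited) against 134 and 126 (wild type), and like *KRT17* it was higher in edited replicate 2 than in edited replicate 1. *KRT14* was closest to *CASP14*, a caspase of cornifying skin (0.33), *KRT15* to *LY6D* (0.44), *KRT5* to the glucose transporter gene *SLC2A1* (0.15) and *KRT6A* to *SEMA4B* (0.06). *KRT6B* was closest to *TNFAIP2* (0.34), *KRT7* to *AC068491.1* (0.04), *KRT8* to *HIGD2A* (0.02) and *KRT18* to the prostaglandin synthase gene *PTGES* (0.12). Among the keratins themselves the closest pair was *KRT7* and *KRT18* (0.20), which shared the low value in wild-type replicate 2. Each distance rests on 4 libraries and the lowest of 4191 candidates, and is a description.

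Of 16 genes that control keratin genes in epithelia, 15 were listed. At an adjusted p under 0.05 (limma), 4 of the 9 with a mean of at least 10 fell and 0 rose, where 4.2% of all tested genes fell and 2.89% rose, with a median log2 fold change of -0.84, beside 0.09 for all tested genes. *GRHL2* and *EHF* reached that mean only through wild-type values, and the list was chosen with earlier results of these data known. The count is thus no evidence about these regulators as a set. *TP63* fell by 2.65 on the log2 scale (adjusted p = 0.0284 from limma). *GRHL2*, a grainyhead factor of epithelial cells, was listed at 0.137 and 0.0460 (edited) against 26.0 and 26.2 (wild type), a log2 fold change of -4.64 (limma adjusted p = 0.00653). *EHF* and *ELF3*, ETS factors of epithelia, had log2 fold changes of -6.30 and -3.93 (adjusted p = 0.00183 and 0.00328 from limma). Of the 6 with a lower mean, 3 fell when tested among all genes, of which 3.4% fell, with *GRHL1* at -3.54 (adjusted p = 0.0138 from limma). *TFAP2A*, an AP-2 factor, was at 107 and 80.8 (edited) against 96.3 and 86.4 (wild type), so its groups overlapped. *FOSL1* went the other way, at 46.8 and 66.0 (edited) against 26.1 and 7.76 (wild type). Its log2 fold change of 1.88 did not pass (adjusted p = 0.0836 from limma). Apart from *TFAP2A* and *FOSL1*, the listed regulators had negative log2 fold changes.

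Of 16 genes whose proteins bind keratin filaments or anchor them at cell contacts, 15 were tested for their RNA. Of these 3 fell, 0 rose and 12 did not pass, where 4.2% of all tested genes fell and 2.89% rose. Their median log2 fold change was -0.66, beside 0.09 for all tested genes. This list too was chosen with earlier results of these data known, so the count is no evidence about these genes as a set. *PKP1*, a desmosomal plakophilin, was at 17.6 and 21.9 (edited) against 108 and 230 (wild type), a log2 fold change of -2.94 (limma adjusted p = 0.0199). *PPL*, which encodes periplakin, fell by 2.07 on the log2 scale (adjusted p = 0.0148 from limma). *HSPB1*, a small heat shock protein that binds keratins, was at 558 and 621 (edited) against 2530 and 3668 (wild type), a log2 fold change of -2.37 (limma adjusted p = 0.0132). *DSP*, the desmoplakin that ties keratins to desmosomes, had a log2 fold change of -1.08 and did not pass (adjusted p = 0.0783 from limma). Not all were lower: *PKP2*, another plakophilin, was at 19.8 and 24.2 (edited) against 12.8 and 10.4 (wild type). Its log2 fold change of 0.87 did not pass (adjusted p = 0.0687 from limma). *PLEC* and *TCHP*, at 0.52 and 0.53, did not pass either. The other genes of the list had negative log2 fold changes, with *PKP3* at -0.04.

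Among the intermediate filament genes outside the keratins, 9 of 14 were listed and 6 had a mean of at least 10. Of these 2 rose, 0 fell and 4 did not pass, where 2.89% of all tested genes rose and 4.2% fell. Their median log2 fold change was 0.43, beside 0.09 for all tested genes. As this list was also chosen with earlier results known, the count is no evidence about the set. *VIM*, the vimentin filament of mesenchymal cells, was at 824 and 1215 (edited) against 257 and 194 (wild type), a log2 fold change of 2.16 (SE 0.28, limma adjusted p = 0.0210). *LMNB1*, a nuclear lamin, rose by 0.97 on the log2 scale (adjusted p = 0.0478 from limma).

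Along the chromosomes, the 4 type I members of the chromosome 17 group all had log2 fold changes under 0, from -3.85 for *KRT15* to -2.11 for *KRT19*, and of these only *KRT17* passed the test. On chromosome 12 the signs differed between neighbours. *KRT6B*, *KRT6A* and *KRT5*, which follow each other among the members, were at -4.37, -1.13 and -1.17, while *KRT7* on one side of them and *KRT8* and *KRT18* on the other were at 0.56, 1.01 and 0.89.

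**Figure D5:**
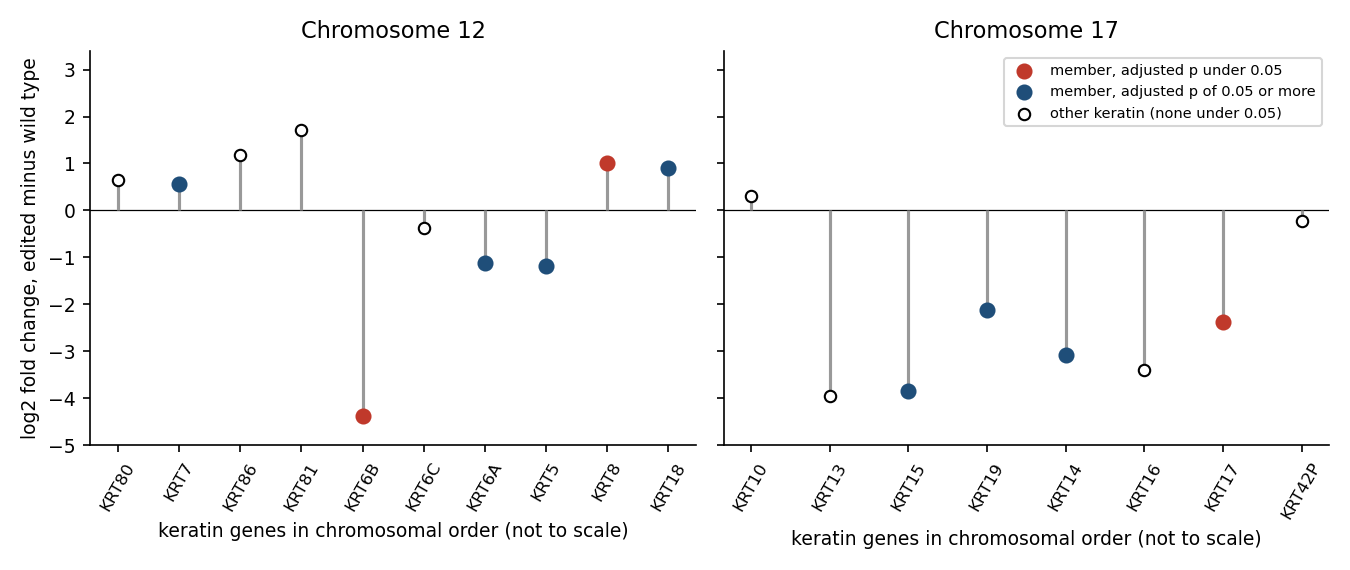
Log2 fold change, edited minus wild type, of every keratin gene of the table in chromosomal order; steps along the axis are not to scale. Filled points are the 10 keratins described here, with *KRT6B*, *KRT8* and *KRT17* past an adjusted p of 0.05, and open points are 8 other keratin genes of the table, a pseudogene among them, none past it.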

How the data were processed

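Poly(A)-selected RNA of 2 edited and 2 wild-type MCF12A libraries was read from a single end (75 bases). The table deposited by the authors holds 1 normalized expression signal per gene and library. The submitters' processing notes name Salmon, HISAT2 and hg38, and the normalization is not given in the sources used here. Relative depth came from values under 1 whose ratios between libraries were ratios of whole numbers up to 3 within 0.2% (144 of 572, 24 of 106 and 29 of 93 genes). It is known up to small whole factors, and reads were not recovered, so no count test was used.

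Groups were compared in limma 3.58.1 (R 4.3.3; lmFit, eBayes with trend) on log2(value + 1) over 9590 genes with a mean of at least 10, adjusted by Benjamini-Hochberg, at 0.05. *KRT19* was tested among all 16811 genes. Fold changes on this scale understate those of low genes. The procedure was tested on simulated data. Sums and ratios used an exact permutation test (scipy 1.17.1). Named were the 10 keratins, *KRT16*, *VIM*, *TP63*, *GRHL2* and *EPCAM*, up to 4 called genes per list and direction by size, and the gene nearest to each keratin. Other genes were named after their values were seen. The keratins and lists were chosen with earlier results of these data known. Alternatives covered pseudocounts (0.1, 5), filters (none, 50), 3 scalings, variance models, a replicate block, a threshold of 0.001 and each library left out. The crossed pairing, a block of unlike-numbered libraries, was added after seeing the data. The 11 alternative settings given for single keratins include it, but not the threshold of 0.001 or the left-out libraries.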

Additional observations from a re-analysis of the deposited data

How the results depend on the processing

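Other filters, variance models, pairings and thresholds leave a fold change as it is. Under the other pseudocounts, scalings and left-out libraries, all 10 keratins kept their direction, except that *KRT7* turned to -0.14 without wild-type replicate 2. With each library left out *KRT7* lay between -0.14 and 1.27. A group left with 1 library is assumed to vary like the other. Calls were less stable. In place of 3 keratins, 1 was called with the replicate block (*KRT14*), 5 with the crossed pairing (1002 of all genes), which was chosen after seeing the data, and 0 at an adjusted p under 0.001, where 7 had an unadjusted p under 0.05 in limma, as did 3095 of 9590 genes. Under the block the adjusted p of *KRT6B* was 0.0617. With each library left out, 0 to 4 keratins were called: 2 without edited replicate 1, 4 without edited replicate 2 and 0 without wild-type replicate 1 or 2, where 9 and 6 had an unadjusted p under 0.05, as did 2639 and 1604 of 9590 genes. Of all 9590 genes 680 were called, and 133 with the block, 1 at 0.001, 419 of those with a mean of at least 50, and from 4 (without wild-type replicate 2) to 1431 (without edited replicate 2) with a library left out, 47 without wild-type replicate 1 and 424 without edited replicate 1. Same-numbered libraries share only a number: the deviations of edited and wild-type replicate 1 had r = -0.14 across genes. Equal library totals moved the median of all tested genes by -0.12.

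The log2 difference of the keratin sum lay between -1.32 and -0.72 with a library left out, that of the type II sum between -0.95 and -0.33 and that of the type I sum between -2.86 and -1.71. The low bound of both the first and the type II sum came without wild-type replicate 1 and the high bound without wild-type replicate 2. With pseudocounts of 0.1 and 5, *KRT7*/*KRT19* was 4.72 and 1.40, and *KRT8*/*KRT19* was 5.17 and 1.83. *KRT6B*/*KRT17* was -1.47 with a pseudocount of 5. For the log2 ratios, differences within same-numbered libraries (the block) equal the main differences by construction and test nothing. For the sums of all 10, of type II and of type I keratins the block only averages logs in place of values. It gave -1.03, -0.64 and -2.26, each within the spread between replicates of the main difference. The number of reads behind low values such as those of *KRT19* is not known. The cause of these changes was not tested.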

Other observations

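The table held 8 keratin genes beside the 10 described, of which 4 had a mean value of at least 10, and limma called 0 of these 8 at an adjusted p under 0.05, while 3 had an unadjusted p under 0.05, a share near that of all tested genes (3095 of 9590). The partner of *KRT6A* in activated epithelium, *KRT16*, was at 14.9 and 7.48 (edited) against 49.8 and 289 (wild type). Both edited values lay below both wild-type values without passing the test (log2 fold change -3.39, adjusted p = 0.0635, limma), and its wild-type values spread like those of *KRT14* and *KRT15*, with the higher one in wild-type replicate 2. *KRT13*, a type I keratin of stratified mucosa, was named after its values were seen. It was listed at 0.621 and 0 (edited) against 6.51 and 51.1 (wild type), which did not pass either (adjusted p = 0.0635, limma).

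*KRT81*, a type II keratin of hair, was also named after its values were seen. Its value was 927 and 485 (edited) against 396 and 106 (wild type), above *KRT8* in each library but wild-type replicate 2. Its log2 fold change of 1.70 did not pass (adjusted p = 0.145, limma). *KRT86*, its neighbour on chromosome 12, was at 11.6 and 5.66 (edited) against 4.84 and 1.76 (wild type), the same order as *KRT81* (adjusted p = 0.181 among all genes, limma). Reads of these related hair keratins may not be told apart.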
